A study of Mus musculus with 22 samples.

Results

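Vitamin A acts on cells mainly through retinoic acid. Retinol enters a cell, is oxidised to retinal and then to retinoic acid, and the acid binds the retinoic acid receptors, which sit on DNA as partners of the retinoid X receptors and switch their target genes from repression to activation. In the lung this system is known for its parts in branching, alveolar septation and the upkeep of epithelium. The genes described here are the retinoic acid receptors Rara, Rarb and Rarg, the retinoid X receptors Rxra and Rxrb, the cytosolic retinoic acid binding proteins Crabp1 and Crabp2, the retinol transporter Stra6, and Dhrs3, a reductase that turns retinal back into retinol and so lowers the supply of retinoic acid. They were chosen by symbol: 9 genes of the 20018 that could be named on the array, measured by 12 of its 55681 probes.

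The cells were FE1, an epithelial line derived from lung of the transgenic MutaMouse and grown in medium with serum and epidermal growth factor. They were exposed for 24 h to the multi-walled carbon nanotubes (MWCNT) known as Mitsui7. There were 5 control arrays (0 µg/ml), 6 at the low dose (12.5 µg/ml, D1), 5 at the medium dose (25 µg/ml, D2) and 6 at the high dose (100 µg/ml, D3), all of the same line. The labels name no added retinoid. Each of the 22 arrays, on 5 slides, carried the RNA of 1 sample in Cy5 and the same pool of mouse reference RNA in Cy3, so that every level below is a log2 ratio of sample to reference and can be compared between groups but not between genes. Detected probes numbered 23688 to 39139 in controls and 25884 to 37010, 26194 to 35626 and 29562 to 36831 at the 3 doses, and control replicate 5 had the fewest. Of 6 markers of lung epithelium, Cdh1 was detected on 0 arrays and Epcam on 2 or 3 arrays of each group. Krt8, Krt18 and Krt19 were detected, at mean log2 ratios of -4.35, -5.62 and -4.91 in controls. Cldn4 was detected on 4 arrays of each group, with a mean log2 ratio of 0.28 in controls. Of 7 markers of alveolar type II cells, Nkx2-1 and Sftpa1 were detected on 0 arrays, Abca3 and Lamp3 on all 22, and Sftpb, Sftpc and Sftpd on some.

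Retinoic acid receptors bind pairs of 6-base motifs repeated in the same direction, and the promoter of Rarb holds the textbook example. In RefSeq promoter windows (GRCm38.p6, 250 bases before to 50 after a start site), which covered 8 of the 9 genes in 19 windows, the search took as motif AGGTCA, the consensus, or 1 of its variants, namely AGTTCA and likewise GGGTCA and further GGTTCA, and looked on both strands for any combination repeated with a spacing of 1, 2 or 5 bases. Such a repeat was found in 1 of the 19 windows, that of Rarb, and in 0.588% of all 32851 windows; repeats spaced by 5 bases, as in Rarb, were in 0.0974%. The motifs overlap in no letter within a repeat, and a match of letters is no evidence of binding. The Rarb window (chr14:16575427-16575726, minus strand) is shown for this repeat, which begins at position -53 from the start site and whose 2 motifs are in capitals. The Dhrs3 window (chr4:144892577-144892876, plus strand) is shown because Dhrs3 was the member called changed, and none of these repeats was in it or in the other windows of Dhrs3.
Rarb: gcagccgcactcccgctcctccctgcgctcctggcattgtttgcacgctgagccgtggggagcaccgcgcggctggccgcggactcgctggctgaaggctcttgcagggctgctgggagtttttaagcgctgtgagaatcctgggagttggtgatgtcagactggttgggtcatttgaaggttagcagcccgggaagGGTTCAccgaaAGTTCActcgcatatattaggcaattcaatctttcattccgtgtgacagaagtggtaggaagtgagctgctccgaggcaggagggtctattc
Dhrs3: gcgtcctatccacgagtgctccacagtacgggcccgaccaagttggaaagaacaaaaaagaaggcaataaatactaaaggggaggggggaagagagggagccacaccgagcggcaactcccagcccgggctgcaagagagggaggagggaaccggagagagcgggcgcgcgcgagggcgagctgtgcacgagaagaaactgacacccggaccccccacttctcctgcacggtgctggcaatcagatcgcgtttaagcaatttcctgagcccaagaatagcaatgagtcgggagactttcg

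Of the 9 genes, 7 were detected well enough to be called, and 1 of the 7, Dhrs3, was called changed at each dose, lower every time. A gene was called where limma's moderated test, fitted over all probes with slide as a term, gave a Benjamini-Hochberg adjusted p up to 0.05 and a difference of 1.5-fold or more, provided that 4 or more arrays of the control or the dose detected it. Of all detected genes the same rule called 5.18% at the low dose (3.01% lower), 8.89% at the medium dose (4.65% lower) and 11.8% at the high dose (6.4% lower), and 1 of 7 members is too few to set apart from that background. The median log2 change of the 7 detected members was -0.06, -0.10 and -0.07 at the 3 doses, against 0.00056, 0.0013 and 0.0092 over all detected genes. Rarb and Stra6 were above the negative controls on too few arrays to be called. Rxrb was higher at the medium and high dose by the test, by less than 1.5-fold.

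**Figure D1:**
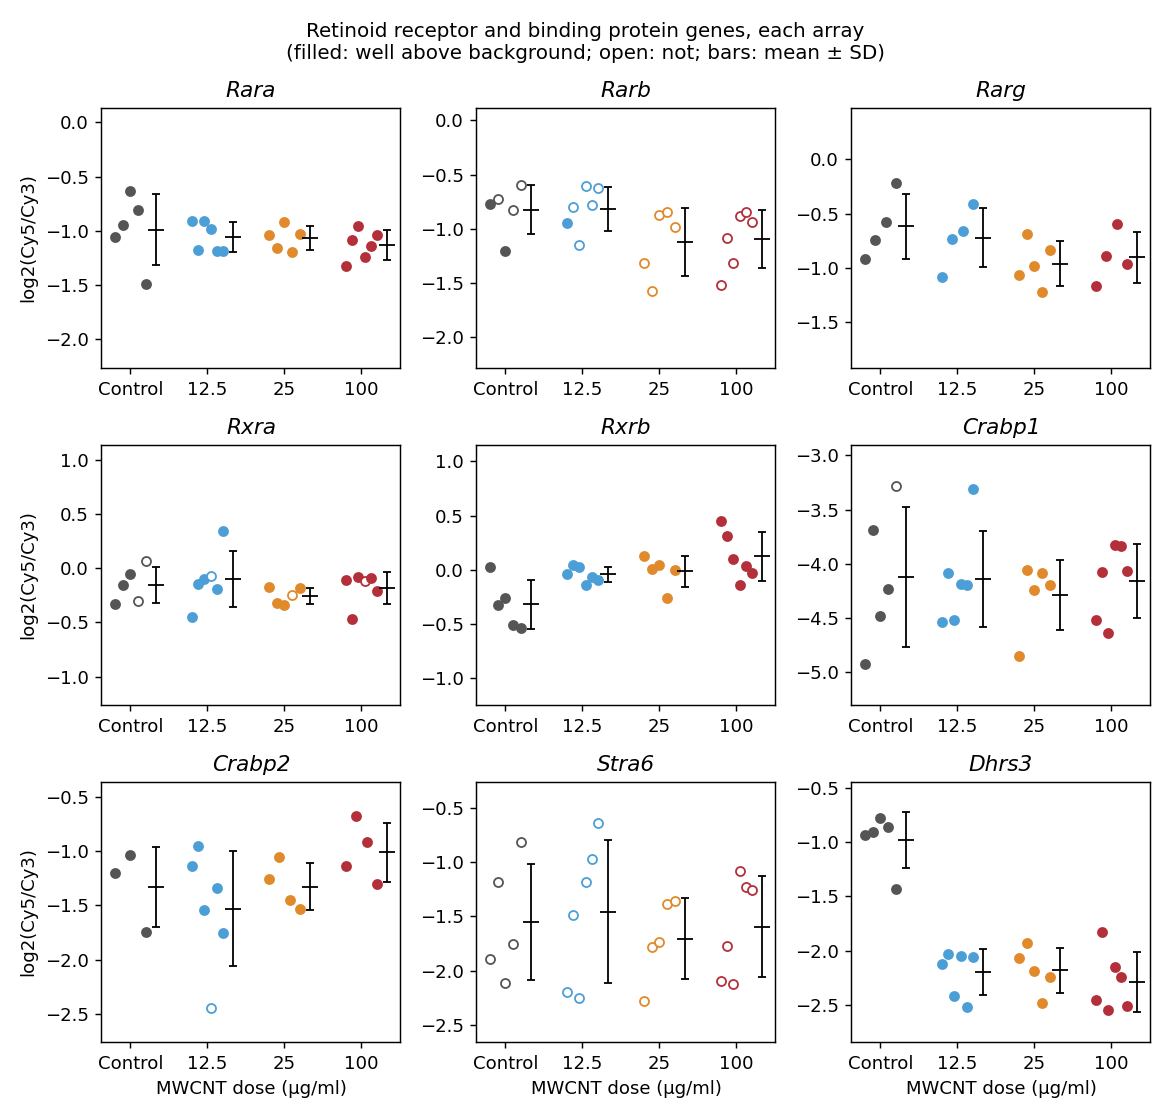
Log2 ratio of sample (Cy5) to reference RNA (Cy3) on each array for the brightest probe of each gene, by MWCNT dose, with the mean and SD of each group as a bar beside the points. Filled points were well above background and open points were not; the panels span equal or larger ranges than 2.4 log2 units and are centred on each gene. Dhrs3 fell from -0.98 in controls to between -2.29 and -2.18 at the doses with no overlap, and Stra6 was not well above background on any array.

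Dhrs3, measured by 1 probe (A_55_P2020128), had log2 ratios of -0.94, -0.90, -0.78, -0.86 and -1.43 in control replicates 1 to 5. At the low dose the lowest, median and highest values were -2.52, -2.10 and -2.03. At the medium dose the arrays read -2.07, -1.93, -2.19, -2.49 and -2.24. The lowest of them belonged to replicate 4, and all lay below every control. At the high dose the lowest, median and highest values were -2.55, -2.35 and -1.83. All exposed arrays therefore lay below all control arrays, the nearest pair being -1.83 at the high dose and -1.43 in control replicate 5. The group means were -0.98 ± 0.26 (SD, n = 5) in controls, -2.20 ± 0.21 (SD, n = 6), -2.18 ± 0.21 (SD, n = 5) and -2.29 ± 0.28 (SD, n = 6) at the low, medium and high dose. In the fit with slide, Dhrs3 was lower by a log2 change of -1.19 at the low dose (SE 0.14, limma adjusted p = 1.84e-05), which is 2.28-fold. It was -1.20 at the medium dose (SE 0.14, limma adjusted p = 1.3e-05), or 2.30-fold. It was -1.28 at the high dose (SE 0.14, limma adjusted p = 2.26e-06), or 2.43-fold. Genes called lower at all 3 doses made up 2.51% of the detected genes.

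No difference in Dhrs3 between doses passed the test. The medium dose differed from the low dose by -0.0089 (95% interval -0.29 to 0.27), the high from the medium dose by -0.078 (-0.36 to 0.20) and the high from the low dose by -0.087 (-0.35 to 0.18), with limma adjusted p of 0.996, 1 and 0.913. Within slides, the 12 differences between a dose and the controls of the same slide were all below 0, from -1.76 to -0.63. The doses of a slide shared its controls, so these differences are not independent of each other. Control replicate 5 lay apart from the other controls, and without it the changes were -1.29, -1.30 and -1.37. The series calls the samples biological replicates, and by the study's methods the cells were exposed in 3 experiments run separately, fewer than the arrays in a group. The labels do not tie arrays to experiments, so some arrays of a group shared one, and p-values over arrays measure the spread between these samples and may be too small.

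**Figure D2:**
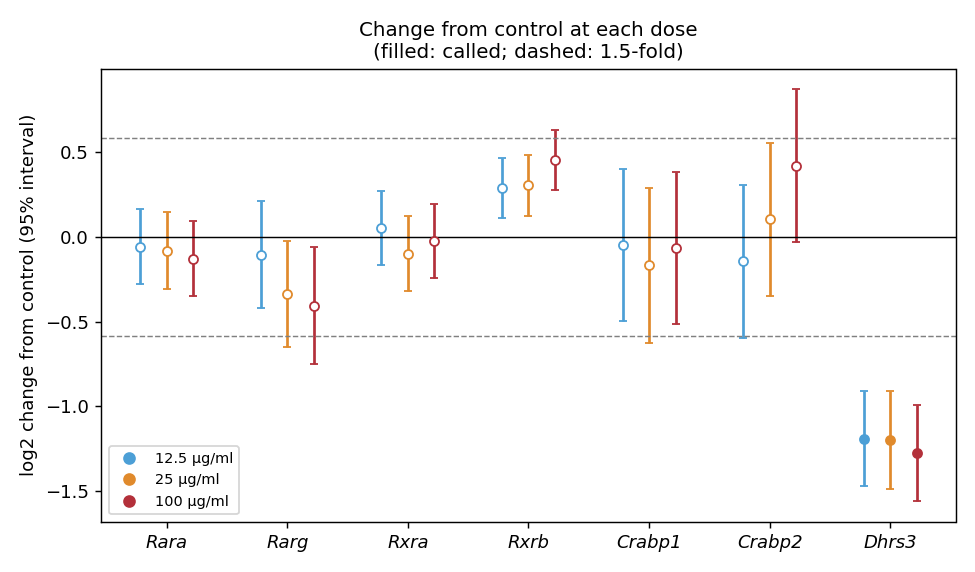
Log2 change from control of the 7 detected genes at 12.5, 25 and 100 µg/ml, with the 95% interval of limma's fit; filled points met the full rule for a call, and dashed lines mark 1.5-fold. The intervals of Dhrs3 lie below the lower dashed line at every dose, from -1.56 to -0.91, and those of Rxrb lie above 0 and reach 0.63.

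Over all 22 arrays, the genes whose slide-adjusted log2 ratio followed Dhrs3 most closely among 8940 detected genes were Nrxn2 (Pearson's r = 0.97), Tle2 (r = 0.97) and Islr (r = 0.96). These are descriptions across arrays that share the 4 groups. With each group's mean removed, the correlations were 0.73, 0.77 and 0.70. The 3 genes had log2 changes of -1.76, -1.38 and -1.72 at the low dose and -1.88, -1.53 and -2.03 at the high dose.

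Rxrb, a retinoid X receptor subtype found in most tissues, was detected on all 22 arrays, with median Cy5 signals of 7998 to 9470 by group, and was higher at the medium and high dose. Its control arrays read 0.028, -0.32, -0.26, -0.51 and -0.54. The lowest, median and highest values were -0.14, -0.050 and 0.047 at the low dose, -0.26, 0.011 and 0.13 at the medium dose, and -0.14, 0.069 and 0.45 at the high dose. The ranges overlapped with that of the controls through control replicate 1, the highest control. As measured, 1 low dose array, 2 medium dose arrays and 4 high dose arrays lay above every control. With slide taken out, 5 of 6, 4 of 5 and 6 of 6 did. That adjustment kept the fitted group differences, so its counts are not separate from the test. The log2 change was 0.29 at the low dose (95% interval 0.11 to 0.46), with a limma adjusted p of 0.0715 that missed the threshold. It was 0.30 at the medium dose (0.12 to 0.49, adjusted p = 0.0442) and 0.45 at the high dose (0.28 to 0.63, adjusted p = 0.00121). These are 1.22-fold, 1.23-fold and 1.37-fold, so Rxrb rose by the test at the medium and high dose without meeting the size required for a call.

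The 12 within-slide differences of Rxrb were all above 0, from 0.15 to 0.54. As for Dhrs3, the doses of a slide shared its controls, so these differences are not independent of each other. The high dose exceeded the low dose by 0.17 (95% interval 0.00097 to 0.33), which did not pass adjustment (limma adjusted p = 0.604). The result at the high dose passed the adjusted p in 41 of 42 alternative analyses, the exception being median centring in place of loess (0.41, adjusted p = 0.753). At the medium dose it passed in 15 of 42. These counts include alternatives that changed only the fold threshold, the detection filter or the averaging over probes. For Rxrb, measured by 1 probe, those could not alter the limma adjusted p, which stayed at 0.00121 and 0.0442.

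**Figure D3:**
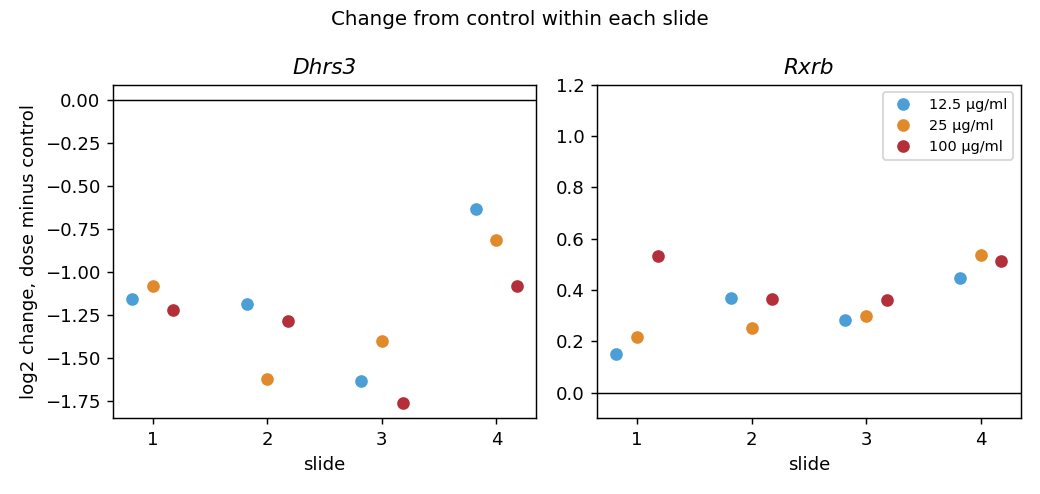
Log2 change of Dhrs3 (left) and Rxrb (right) between each dose and the control arrays of the same slide, for the 4 slides that held controls; each point is a difference of 1 array, or on slide 1 of the mean of 2 arrays, per group. All points of Dhrs3 lie below 0, between -1.76 and -0.63, and all points of Rxrb above 0, between 0.15 and 0.54.

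Rxra, the other retinoid X receptor of the set, did not pass the test at any dose. Its brighter probe had mean log2 ratios of -0.16 ± 0.17 (SD, n = 5) in controls and -0.10 ± 0.26 (SD, n = 6), -0.25 ± 0.075 (SD, n = 5) and -0.18 ± 0.15 (SD, n = 6) at the doses. The high dose change was -0.024 with a 95% interval of -0.24 to 0.19. This probe was dim, well above background on 17 of 22 arrays, and background was left in the signals. The interval therefore holds for the measured ratio and does not leave out a change of 1.5-fold in the RNA. The dimmer probe gave -0.095, -0.31 and -0.20, with limma adjusted p of 0.85, 0.314 and 0.559.

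Among the receptors of retinoic acid, Rara, the most widely expressed subtype in general, was detected on all 22 arrays. Its brighter probe had control values of -1.06, -0.95, -0.64, -0.81 and -1.49, and all exposed arrays, from -1.32 to -0.91, lay inside that range. The changes were -0.057, -0.081 and -0.13, with 95% intervals reaching no further than -0.35 and 0.17 and limma adjusted p of 0.884, 0.836 and 0.652. The dimmer probe of Rara disagreed. It fell by 0.59 on the log2 scale at the low dose (SE 0.15, limma adjusted p = 0.0389, 5 arrays against 4), just past the 1.5-fold of the rule, and read -0.35 and -0.34 at the medium and high dose (adjusted p = 0.273 and 0.232). That call was kept in 18 of 42 alternative analyses. Some of the 18 changed only the fold threshold or the detection filter and left its adjusted p as it was. The call was lost without control replicate 5, whose value of 0.67 was the highest control, and the change was then -0.47. It was also lost without other arrays, such as control replicate 3 or high dose replicate 3, where the change was -0.64 and -0.59. The dimmer probe had no ratio on slide 2, where its spots were marked as outliers.

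Rarg, a receptor subtype best known from skin and other epithelia, was detected on all arrays but lost 5 ratios to outlier marks. Its lowest, median and highest log2 ratios were -0.92, -0.66 and -0.22 in 4 control arrays, -1.08, -0.69 and -0.41 in 4 low dose arrays, -1.22, -0.98 and -0.69 in 5 medium dose arrays, and -1.16, -0.92 and -0.60 in 4 high dose arrays. The groups overlapped. The changes were -0.10, -0.34 and -0.41, with 95% intervals of -0.42 to 0.21, -0.65 to -0.023 and -0.75 to -0.059, and none passed adjustment (limma adjusted p = 0.838, 0.277 and 0.182). All 8 within-slide differences that could be formed were below 0, from -0.74 to -0.043, and the doses of a slide shared its controls.

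Rarb, the subtype whose own promoter carries the repeat printed above and which retinoic acid is known to induce, was near the limit of detection. Its brighter probe gave a signal well above background on 2 of 5 controls, 1 of 6 low dose arrays and 0 of the medium and high dose arrays, with group medians of 79.8 to 84.0 Cy5 units. Its Cy5 signals ran from 71.5 to 139.5 in controls, from 64.5 to 89.0 at the medium dose and from 70.0 to 87.0 at the high dose. The ranges overlapped, and neither dose passed the test (limma adjusted p = 0.262 and 0.19). Its dimmer probe was not well above background on any array.

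Of the binding proteins, Crabp1, which carries retinoic acid in the cytosol and is linked to its breakdown, had low ratios throughout. The control arrays ranged from -4.92 to -3.28 and the exposed arrays from -4.85 to -3.31, so the ranges were almost the same. The group means lay between -4.29 and -4.12, far below the reference pool, and the changes were -0.046, -0.17 and -0.068 (limma adjusted p = 0.958, 0.83 and 0.943). The widest of their 95% intervals was -0.63 to 0.29, so a change of 1.5-fold downward was not left out at the medium dose. Background was left in the signals, so none of these intervals bounds the change in the RNA.

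Crabp2, which delivers retinoic acid to the nuclear receptors, was read on only 3 control arrays, at -1.20, -1.04 and -1.74, because the other 2 spots were marked as outliers. Its lowest, median and highest values were -2.45, -1.44 and -0.95 at the low dose (n = 6), -1.54, -1.35 and -1.06 at the medium dose (n = 4), and -1.31, -1.03 and -0.68 at the high dose (n = 4). The high dose arrays overlapped with the controls. The changes were -0.14, 0.10 and 0.42, and at the high dose the 95% interval ran from -0.031 to 0.87 (limma adjusted p = 0.332). The high dose exceeded the low dose by 0.56 (0.16 to 0.97), which did not pass adjustment over all probes (limma adjusted p = 0.366).

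Stra6, the membrane receptor that takes up retinol from its plasma carrier, was not well above background on any of the 22 arrays, with group medians of 77.2 to 78.0 Cy5 units. No change is given for it.

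Between the doses themselves, 0 members were called. For the medium against the low dose and the high against the medium dose, limma called 0% of detected genes, and 0 of the 7 detected members had an unadjusted p below 0.05. For the high against the low dose it called 0.435% of detected genes, and 2 of the 7 members, Rxrb and Crabp2, had an unadjusted p below 0.05. The count of members called stayed at 0 without the slide term, with slide as a random block and under median centring.

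The wider retinoid pathway was read from 61 further genes on the array, listed by role. Of these 48, 47 and 50 were detected at the low, medium and high dose, with 3, 3 and 3 called higher and 3, 5 and 6 called lower. For comparison, the rule called 2.17%, 4.24% and 5.45% of all detected genes higher and 3.01%, 4.65% and 6.4% lower. The median log2 change of the detected pathway genes was 0.059, -0.060 and -0.0096. No gene was called among the retinol carriers (4 of 7 detected at the high dose), the enzymes of retinol and retinal metabolism (12 of 17), the Cyp26 enzymes that break down retinoic acid (2 of 3) or the coregulators (9 of 9).

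In the synthesis of retinoic acid, Aldh1a1, a retinal dehydrogenase that makes the acid from the substrate Dhrs3 removes, was the member of its list called. Its mean log2 ratio was 4.37 ± 0.23 (SD, n = 5) in controls, far above the reference pool, and 3.87 ± 0.36 (SD, n = 6), 3.49 ± 0.28 (SD, n = 5) and 3.49 ± 0.22 (SD, n = 6) at the low, medium and high dose. It fell by 0.88 on the log2 scale at the medium dose and by 0.91 at the high dose (limma adjusted p = 0.000799 and 0.000269), and the low dose change of -0.53 narrowly missed the threshold (adjusted p = 0.0505). With slide taken out and the fitted group differences kept, every exposed array lay below every control at each dose. Aldh1a2 and Aldh1a3, the other retinal dehydrogenases, had changes between -0.089 and 0.098 and were dim, Aldh1a2 being well above background on 1 control array and no exposed array.

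Enzymes around retinal shifted by smaller amounts and in both directions. Rdh11, a retinal reductase, and Dhrs4, a reductase of the same broad family as Dhrs3, fell at the high dose by less than 1.5-fold. The falls were 0.41 and 0.47 on the log2 scale (limma adjusted p = 0.000586 and 0.00395). With slide taken out and the fitted group differences kept, 6 of 6 arrays of each lay below every control. Neither passed at the low or medium dose. Rdh10, which makes retinal from retinol and works in a complex with Dhrs3, had changes of -0.14, -0.085 and -0.19 (adjusted p = 0.692, 0.847 and 0.454). Cyp26a1, a standard readout of retinoic acid signalling, was well above background on 3 of 5 controls and on 4 of 6, 4 of 5 and 2 of 6 arrays at the low, medium and high dose, with changes of 0.093, -0.047 and -0.26 (adjusted p = 0.816, 0.929 and 0.246).

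Of 10 partner receptors of the retinoid X receptors, all detected, 2 were called higher at each dose and 2, 2 and 3 lower. Of all detected genes, 2.17%, 4.24% and 5.45% were called higher and 3.01%, 4.65% and 6.4% lower. The orphan receptors Nr4a1 and Nr4a2, immediate early genes that can pair with retinoid X receptors, rose by 1.26 and 1.13 on the log2 scale at the low dose and by 1.29 and 1.30 at the high dose (limma adjusted p of at most 3.88e-05). The thyroid hormone receptors Thra and Thrb fell at every dose, Thra by 0.59, 0.68 and 0.83 and Thrb by 0.86, 0.81 and 1.10. The vitamin D receptor Vdr fell by 1.02 at the high dose (adjusted p = 0.00722), and its changes of -0.38 and -0.63 at the lower doses did not pass. The peroxisome proliferator and liver X receptors in the list were not called, with high dose changes from -0.17 (Pparg) to 0.36 (Ppard).

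Among 11 genes known to be induced by retinoic acid in other cells, of which 8, 8 and 9 were detected, 1 was called higher at every dose and 1, 2 and 2 were called lower, where the same shares of all detected genes apply (2.17% to 5.45% higher and 3.01% to 6.4% lower). Tgm2, tissue transglutaminase, fell by 0.92, 1.06 and 0.97 on the log2 scale (limma adjusted p = 0.000881, 0.000165 and 0.000187). Hoxa5, a homeobox gene of body patterning, fell by 0.86 at the high dose (adjusted p = 0.0208), and Meis2, a homeobox cofactor, fell by 0.70 at the medium dose (adjusted p = 0.00445). Meis2 also passed the test at the low and high dose, at -0.53 and -0.53 (adjusted p = 0.0416 and 0.0212), under 1.5-fold. Gprc5a, an orphan receptor known as a retinoic acid induced gene, rose by 0.65, 0.78 and 1.02 (limma adjusted p = 0.0115, 0.00225 and 6.67e-05). The list therefore held called genes in both directions. Its median log2 change over detected members was -0.20, -0.39 and -0.32, against 0.00056, 0.0013 and 0.0092 over all detected genes.

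**Figure D4:**
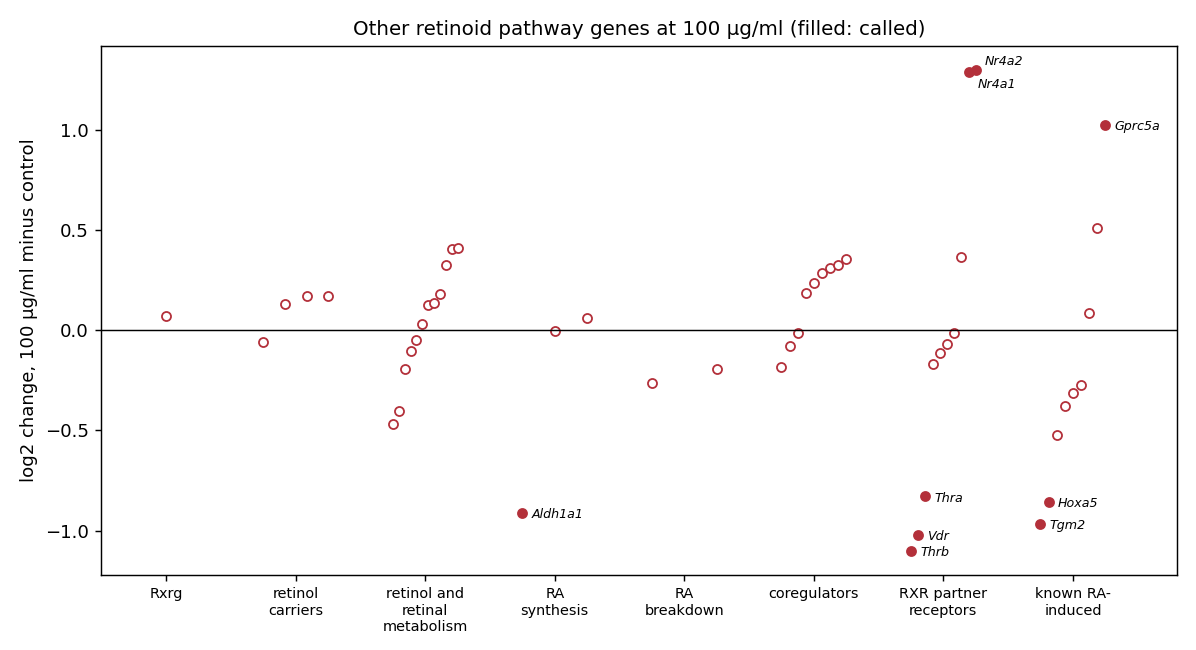
Log2 change from control at 100 µg/ml of the 50 other retinoid pathway genes detected at that dose, each point 1 gene, grouped by role (RA, retinoic acid); filled points were called and are named. Called genes lie in 3 of the groups, from -1.10 (Thrb) to 1.30 (Nr4a2).

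Of 7 genes that mark mesenchymal cells, all detected, Col1a1, Col1a2, Col3a1 and Pdgfra were called lower at every dose and Pdgfrb at the medium and high dose, while Vim (log2 changes of 0.14, 0.39 and 0.14) and Acta2 (-0.37, -0.75 and -0.70) were not called. Of all detected genes, 5.18%, 8.89% and 11.8% were called at the low, medium and high dose, and 3.01%, 4.65% and 6.4% were called lower. The mean log2 ratio over the 7 mesenchymal markers ranged from 0.18 to 0.42 in control arrays. It ranged from -0.95 to 0.16, -1.03 to -0.43 and -1.09 to -0.50 at the low, medium and high dose, and no marker of the list was undetected on all arrays. Their part in the fall of Dhrs3 was not tested, and in this bulk RNA fewer cells of a kind and less RNA per cell cannot be told apart. The mean over 6 epithelial markers ranged from -3.30 to -2.51 in controls and from -3.26 to -2.79 at the high dose, with 0 of 4 detected members called. That mean includes Cdh1, detected on 0 arrays, and Epcam, detected on 2 or 3 arrays of each group. Of the 4 alveolar type I markers detected, 1 was called, Hopx, lower at every dose, while Pdpn had changes of 0.22, 0.48 and 0.31 that did not pass. Of the alveolar type II markers, 3, 4 and 4 were detected and 1 was called, Lamp3, higher at the medium and high dose, while Abca3 had changes of -0.58, -0.37 and -0.63 that did not pass. The detected members of the club cell (1 of 2 on the array), immune (3 of 3) and endothelial (2 of 3) lists were not called at any dose. These lists, and the epithelial and alveolar lists, held too few detected genes to set apart from the shares of all detected genes.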

How the data were processed

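Gene expression was analysed in FE1 cells on 22 Agilent 2-colour arrays, grouped by the labels. The deposited scanner files hold the raw median pixel intensity of spots and of the area around them in both channels, not normalised by the authors. The file headers name the software Feature Extraction 10.7.3.1, scanner G2505C at 3 µm and a grid on mm9; the methods of the study name other versions. A log10 ratio of both dyes by that software, and its quality marks for spots, were deposited with them. The authors' series matrix holds log2 ratios, 1 per probe, by a normalization not given in the sources used here.

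Control spots were dropped and spots with a non-uniformity or population outlier mark treated as missing. The log2 ratio of Cy5 to Cy3 median signals, not background-subtracted, was corrected by loess array by array. Detection meant a Cy5 signal above that of the 308 negative control spots (trimmed mean at 5% plus 3 SDs after trimming). Accessions were matched without version to symbols of a GRCm38.p6 gene table (26413 of 55681 probes), and the brightest probe stood for a gene. The test was limma's (version 3.58.1, R 4.3.3; residual degrees of freedom 14, prior 5.51), with group and slide in 1 model and Benjamini-Hochberg adjustment over all probes; this replaced the study's shrinkage test, which was not installed. The fit was tested on simulated data. Dye swaps were not made, so a probe's dye bias stays in its ratio and cancels between groups. The number of arrays limits precision.

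All 9 genes were named with every probe, others by lists written by role, of which those called or central to a step were named, and the 3 genes most alike a called member by correlation. The genes and lists were chosen with earlier results of these data known, and 2 genes of the lists are not reported here. Promoter sequences are from RefSeq (GRCm38.p6) and were searched by string match. Same-numbered samples of different groups deviated together from their group means (correlation 0.17 or more in all 31 pairs), and 27 of the pairs shared a slide. The 4 pairs on different slides had correlations of 0.39 to 0.56. With slide taken out, the median correlation of the 31 pairs was -0.045. The numbers were taken as possible pairs, and a replicate block was tried in place of slide. The alternatives were other normalizations, filters, thresholds and fits, and leaving out each array or slide.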

Additional observations from a re-analysis of the deposited data

Results flagged for a closer look

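Of 35 gene and group combinations with at least 4 ratios, 4 had an array far from the others of its group; about 1 in 20 such groups is marked by chance. Control replicate 5 read -1.43 for Dhrs3 against -0.94 for the nearest control, still above every exposed array. For Crabp1, low dose replicate 6 read -3.31 with the nearest array at -4.08, and medium dose replicate 1 read -4.85 with the nearest at -4.24. For Rxra, high dose replicate 2 read -0.47 with the nearest at -0.21.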

How the results depend on the processing

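The number of members called was unchanged in all 42 alternatives at the low dose, 40 of 42 at the medium dose and 41 of 42 at the high dose, and in all 26 between the doses; without each array in turn it stayed at 1, 1 and 1 against control and at 0 between doses. With no fold threshold it was 2 at the medium and 2 at the high dose, because Rxrb was added. Without slide 1 it was 0 at the medium dose: 3 arrays then remain in either group, so detection in 4 could not be met, and Dhrs3 read -1.28 (limma adjusted p = 0.0031). With the replicate block in place of slide, the counts were 1, 1 and 1 against control and 0 between doses, and Rxrb at the low dose passed (0.30, limma adjusted p = 0.0403), still under 1.5-fold. Rxrb at the low dose passed the adjusted p in 4 of 42 alternatives, the replicate block among them. Dhrs3 stayed between -1.37 and -1.08 at every dose and alternative. Median centring moved the median change of all detected genes at the low dose to -0.11. 

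Changes near 0 that passed no test switched sign in some alternatives. Under median centring Rxra at the low dose was -0.066 and Rara at the medium dose 0.012. By the scanner's log ratio Crabp1 at the low and high dose was 0.12 and 0.056 and Rxra at the high dose 0.14. In the series matrix Rxra at the low dose was -0.0068 and Crabp1 at the high dose 0.0092. With only the 2 groups compared Crabp2 at the low dose was 0.047, as without slide 2. By the mean of all detected probes Rxra at the low dose was -0.021. Without slide 1 Rxra at the high dose was 9.285e-06, and without slide 4 it was 0.025, with Crabp1 at 0.018 and 0.092 at the medium and high dose. Leaving out single arrays gave -0.22 to 0.12 for Crabp1 at the low and -0.25 to 0.094 at the high dose, -0.028 to 0.12 for Rxra at the low and -0.070 to 0.036 at the high dose, -0.18 to 0.0034 for Rara and -0.28 to 0.047 for Crabp2 at the low dose. The cause was not tested. Array signal over background limits Rarb and Stra6.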
